A study of Mus musculus with 24 samples.

Results

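Cytoplasmic ribosomal protein genes were followed across the cell classes of the mouse dorsal striatum and primary motor cortex. They were taken by symbol: every feature whose name starts with Rps or Rpl followed by a number, together with Rplp0, Rplp1, Rplp2 and Rpsa, leaving out pseudogene symbols that contain -ps and the kinases of the Rps6k family. This rule gave 93 genes of 54235 features, 38 of the small and 55 of the large ribosomal subunit. A further 296 pseudogene features with -ps in the symbol and 83 mitochondrial ribosomal protein genes were kept apart. In the GENCODE annotation of GRCm38 all 93 symbols were found, on 19 chromosomes with 4 on X, and 86 were annotated as protein-coding. Rps19bp1 also meets the rule, although it encodes a partner that binds Rps19 and not a ribosomal protein.

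Mice of 2 lines were used, Fos-CreER::Ai9 for the motor cortex and Arc-CreER::Ai9 for the dorsal striatum. In both lines a neuron active around a dose of 4-hydroxytamoxifen switches on a red reporter. All groups, the untrained controls included, received 4-hydroxytamoxifen, and the trained mice had learned a forelimb reaching task for 2 days (early) or 8 days (late). Tissue was dissociated with papain 3 days after labelling. The 24 single-cell libraries came from 12 pools of 2 mice, 2 pools for each region and stage, with 1 library for each hemisphere of a pool. Driver line and region cannot be told apart. The pool was the unit of replication. In comparisons of kits, stages and regions the p-values measure the spread between pools of mice. Where classes or hemispheres of the same pools were compared, they measure how the difference within a pool varies from pool to pool.

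Ribosomes are built from ribosomal RNA and a large set of different proteins, most of which are needed in equal numbers of copies. The proteins of the small subunit hold the messenger RNA and its decoding site. Those of the large subunit surround the site where peptide bonds form, and a flexible stalk made of Rplp0, Rplp1 and Rplp2 recruits the elongation factors. Ribosomal protein mRNAs are among the most abundant of growing cells. They begin with a short run of pyrimidines at the cap, the terminal oligopyrimidine tract, through which mTOR signalling controls their translation as a group. Several have a close copy elsewhere in the genome, such as Rpl22l1 beside Rpl22 and Rps27l beside Rps27.

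The starts of 5 members show both the shared feature and its limits. Each window below runs from 10 bases before to 20 bases into the transcript start listed by RefSeq (GRCm38.p6), 5′ to 3′ on the gene's own strand, and capitals mark a C followed by at least 4 pyrimidines within 5 bases of that start. Rps27 lies at chr3:90213629-90213658 on the minus strand, Rps27l at chr9:66946076-66946105 on the plus strand, Rpl22 at chr4:152325716-152325745 (plus), Rpl22l1 at chr3:28805498-28805527 (plus) and Rpl38 at chr11:114668570-114668599 (plus). They are shown because the 2 paralog pairs and Rpl38 carry results described further on. RefSeq lists 2 starts for Rps27l and 2 for Rpl22, and only the first of each is shown.
Rps27: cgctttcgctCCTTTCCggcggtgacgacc
Rps27l: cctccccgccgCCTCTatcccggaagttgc
Rpl22: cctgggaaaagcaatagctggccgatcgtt
Rpl22l1: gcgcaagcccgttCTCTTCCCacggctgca
Rpl38: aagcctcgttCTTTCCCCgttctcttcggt
In the Rps27 and Rpl38 windows the tract stands at the listed start itself, in Rps27l and Rpl22l1 it begins 1 and 3 bases after it, and no such run is in the Rpl22 window. Among the 68 members matched to a RefSeq start, 15 (22.1%) had the tract at the start and 31 (45.6%) within 5 bases of it. Where several starts were listed for a gene, a tract at any of them was counted. Among 27025 genes the shares were 3.01% and 21.2%. The listed starts come from the annotation and not from these 3′ libraries, so a start that is off by a few bases hides a tract.

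Matrices of 23 libraries were analysed, holding 98612 cells after filtering and removal of presumed doublets, with medians of 1970 to 5520 UMIs (molecules counted once each) per cell by library. The right hemisphere library of striatal control pool 1 was not analysed here. The kit, version 2 or 3 of the 10x 3′ chemistry, is not given per library. The cell barcodes that libraries share put the pools into 2 classes: 2226 barcodes were shared over 28 library pairs within class A, 715 over 120 pairs within class B and 112 over 128 pairs between the classes. Class A held control pool 1 and late pool 1 of each region, and class B the other 8 pools. Median mitochondrial percentages were 1.15 to 1.63 in class A libraries and 1.83 to 3.85 in class B. Kit class therefore stands beside every result across pools.

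Leading genes of the spiny projection neuron-like clusters included Penk, Adora2a, Drd2, Tac1 and Drd1 in the striatum, and Slc17a7 was among those of most glutamatergic neuron-like clusters in the motor cortex. A glutamatergic neuron-like cluster of 224 cells, led by Cck and Slc17a7, was found in the striatal libraries too. The striatal libraries also held 2678 cycling progenitor-like cells, led by Top2a, Pclaf and Mki67, and 5966 neuroblast-like cells in 3 clusters, all led by Igfbpl1. Dcx and Dlx6os1 were among the leading genes of the cluster with 3037 cells. Another cluster, of 1746 cells, had Hes5, Ccnd2 and Pclaf among its leading genes, with 49.5% of its cells from 1 pool and a ribosomal protein share of 16.2%. The ribosomal protein genes and their pseudogenes were left out of the genes used for clustering.

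Among the striatal classes reported here, ribosomal protein UMIs made up the largest part of the transcriptome in progenitor-like, neuroblast-like and microglia-like cells. Perivascular macrophage-like cells followed with a median of 9.42% (8.12% to 12.9%) and endothelial-like cells with 7.86% (6.66% to 11.7%). In the motor cortex microglia-like cells had the highest median of the named classes. Endothelial-like cells there, at 8.36% (7.02% to 15.1%), lay near neuroblast-like cells (8.10%). The smallest shares in both regions were those of astrocyte-like cells and projection neurons. In striatal neuroblast-like cells the share of all UMIs was 17.7% and 11.6% in control pools 1 and 2, 10.7% and 10.8% in the early pools, and 17.1% and 11.6% in the late pools. In cycling progenitor-like cells the same pools gave 15.9%, 11.8%, 10.3%, 10.5%, 15.1% and 11.5%. In spiny projection neuron-like cells they gave 4.24%, 2.99%, 2.41%, 2.53%, 4.36% and 2.73%. Every pool of both immature classes lay above every pool of the spiny neurons, and within each class the 2 highest pools were those of kit class A.

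The medians over the 6 pools were 11.6% (13.3 ± 3.25, mean ± SD, n = 6) for neuroblast-like cells, 11.6% (12.5 ± 2.40) for progenitor-like cells and 2.86% (3.21 ± 0.869) for spiny projection neuron-like cells. Within a pool, which holds mice, kit and batch constant, the neuroblast share was 3.89 to 4.44 times the spiny neuron share (median 4.21, higher in 6 of 6 pools). Progenitor-like cells stood at 0.882 to 1.02 times the neuroblast share and above it in 1 of 6 pools. As a share, the larger difference therefore lay between neuroblast-like cells and spiny neurons and not between progenitor-like and neuroblast-like cells. Counted per cell, median ribosomal protein UMIs were 546 for progenitors, 215 for neuroblasts and 150 for spiny neurons. GABAergic interneuron-like and cholinergic neuron-like cells of the striatum had 363 and 664.5, so the order per cell differed from that of the shares. Maturity and cell type cannot be told apart here, and lineage was not tested. Median totals were 5252 UMIs per cell for progenitors, 1758 for neuroblasts and 5450 for spiny neurons. The part of depth in the shares was not tested.

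Other mature neurons of the striatum had medians above that of the spiny neurons. They were 4.10% for GABAergic interneuron-like (2.82% to 6.11%) and 4.46% for cholinergic neuron-like cells (2.90% to 6.83%). Across pools the ranges of these 3 neuronal classes overlap. Control pools 1 and 2, early pool 1 and late pool 1 gave 6.11%, 4.41%, 2.82% and 6.01% in interneurons. The same pools gave 6.83%, 5.03%, 2.90% and 6.49% in cholinergic and 4.24%, 2.99%, 2.41% and 4.36% in spiny neurons. Both classes thus lay above the spiny neurons within each of these pools, which was not tested. In early pool 2 and late pool 2 interneurons were higher in both hemispheres. Neuroblast-like cells exceeded the interneurons 2.63- to 3.79-fold within pools (median 2.92). In the motor cortex, glutamatergic neuron-like cells had a median of 2.86% (2.51% to 4.74%) and GABAergic interneuron-like cells 3.77% (3.28% to 7.19%), with the interneurons higher in 6 of 6 pools by 1.18 to 1.65 times. Neuroblast-like cells were few there, 149 in 4 pools, at 6.16% to 10.6%.

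Glia spanned a wide range. Astrocyte-like cells had the lowest median of both regions, 1.86% (1.45% to 4.18%) in striatum and 2.11% (1.49% to 3.60%) in motor cortex. Microglia-like cells, the resident macrophages of the brain, had medians of 10.7% (9.84% to 18.8%) in striatum and 11.7% (9.09% to 17.2%) in motor cortex, 3.28 to 4.42 and 3.55 to 4.30 times the projection neurons of the same pool. Oligodendrocyte precursor-like cells, at 4.11% and 3.72%, lay near the neurons.

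**Figure D1:**
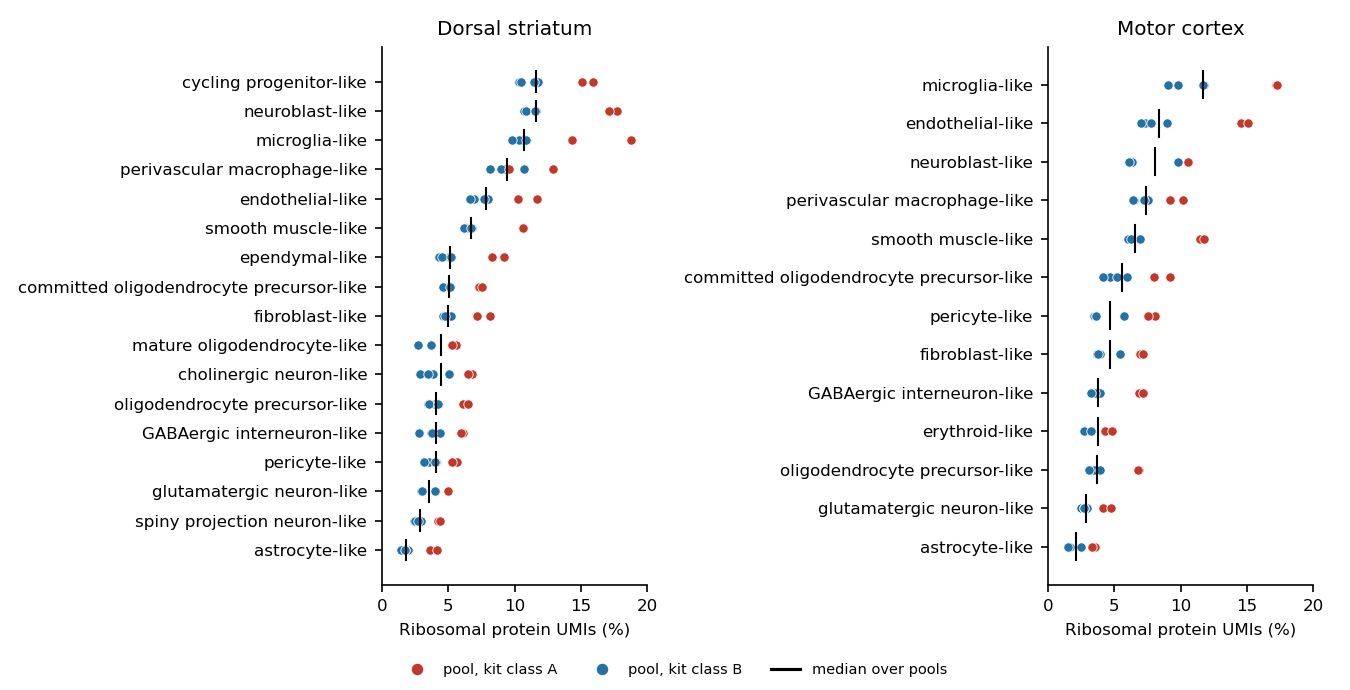
Share of UMIs from the 93 ribosomal protein genes (percent, x axis) in each cell class (y axis) of dorsal striatum (left) and motor cortex (right); each dot is a pool with at least 20 cells, red for kit class A and blue for class B, and the black bar is the median over pools. Striatal neuroblast-like pools sit between 10.7% and 17.7% and spiny projection neuron-like pools between 2.41% and 4.36%, and red dots lie to the right of blue ones in nearly every class shown.

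The difference between neuroblast-like and spiny projection neuron-like cells ran through almost the whole gene set. Of 89 members tested with edgeR's quasi-likelihood test (pool as a block, Benjamini-Hochberg adjusted p under 0.05 over all genes tested), 86 were higher in neuroblasts, against 38.0% of all genes, and 1 was lower, against 42.6%. The median log2 difference of the members was 2.05 with an SD across members of 0.68, while over all 15601 genes tested the median was −0.08 and the SD 2.35. Between progenitors and spiny neurons 87 of 89 were higher (background 39.9%) and 1 lower (45.5%), with a median of 1.92. Members of the small subunit had medians of 2.16 and 2.11 in these comparisons, and those of the large subunit 1.94 and 1.82. In the comparisons of classes, 3 members never reached the count needed for a test: Rpl10l and Rps12l1 had 0 UMIs and Rpl3l 208.

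The stalk proteins moved unequally. Rplp0, the base of the stalk, reached 31.2, 17.4, 16.0, 19.1, 34.2 and 15.8 UMIs per 10000 in neuroblast-like cells of control pools 1 and 2, early pools 1 and 2 and late pools 1 and 2. In spiny neurons of the same pools it reached 2.21, 1.46, 1.20, 1.38, 2.27 and 1.26. The groups do not overlap, and the fitted log2 difference of 3.79 (SE 0.085, edgeR adjusted p 9.41e-17) was the highest of all members. Rplp1 and Rplp2, which form the arms of the stalk, rose by log2 differences of 0.97 (adjusted p 5.91e-09) and 1.64 (adjusted p 1.04e-11). For Rplp1 the pools gave 30.2, 17.0, 16.9, 17.9, 31.3 and 22.6 per 10000 in neuroblasts and 14.2, 10.1, 10.1, 9.55, 14.4 and 11.6 in spiny neurons, higher in neuroblasts within each of the 6 pools. In microglia-like against spiny neurons the 3 stalk genes rose by 3.75, 3.08 and 2.57, so Rplp1 stood below Rplp2 in one comparison and above it in the other. Whether these members differ from each other was not tested.

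Among small subunit proteins, Rps9, which lines the entry of the mRNA channel, was at 47.8, 24.7, 28.1, 30.6, 46.7 and 35.4 per 10000 in neuroblasts and at 6.63, 3.49, 3.26, 3.78, 7.23 and 4.46 in spiny neurons (log2 2.96). Rps4x and Rps24 differed by 2.88 and 2.85, each on the same side in 6 of 6 pools. Rps6, the substrate of the S6 kinases, rose by 1.85 and Rpsa, a small subunit protein also known as the laminin receptor, by 2.25. On the large subunit, Rpl22 stood at 10.1 to 11.6 per 10000 in the 6 neuroblast pools and 1.41 to 1.77 in the spiny neuron pools (log2 2.82, SE 0.076, edgeR adjusted p 5.84e-16), and its level changed little with kit class in either. Of the 3 members below 0, Rpl22l1 (−0.18) and Rps4l (−0.23) were not called, and Rps19bp1, which is not a ribosomal protein, was called lower: 0.560 against 0.711 per 10000 as medians, a log2 difference of −0.38 (SE 0.098, edgeR adjusted p 0.00168).

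**Figure D2:**
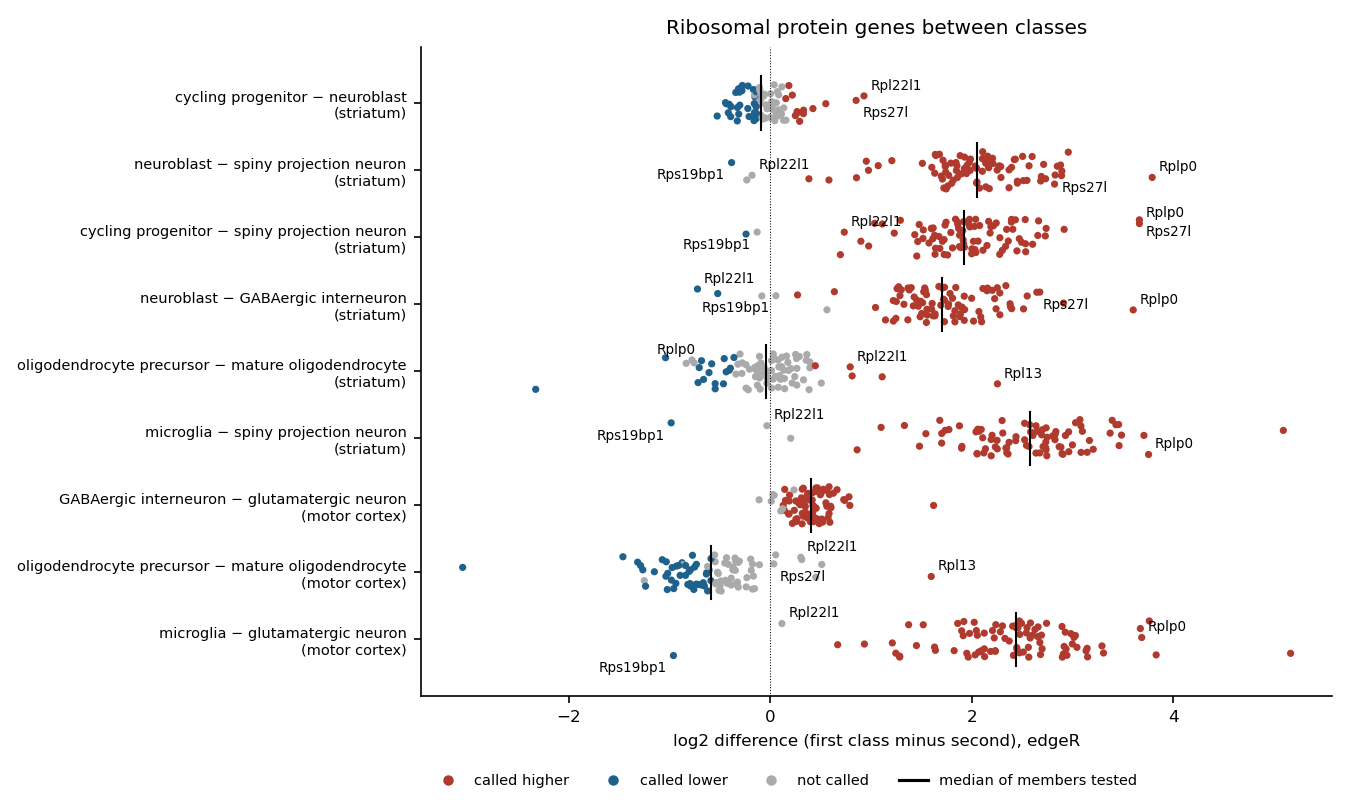
Fitted log2 differences (x axis, edgeR) of each ribosomal protein gene tested, for 9 comparisons between classes (y axis, first class minus second); dots are genes, coloured red where called higher, blue where called lower and grey where not called, and black bars are medians. In neuroblast against spiny projection neuron the dots centre on 2.05 with Rplp0 at 3.79 and Rps19bp1 at −0.38, while in progenitor against neuroblast they centre on −0.09.

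Between cycling progenitor-like and neuroblast-like cells, 13 of 89 members were higher in progenitors (background 31.2% of all genes) and 34 lower (31.9%), around a median of −0.09 beside −0.01 for all genes. The spread was narrow, with an SD of 0.25 against 1.20. The 2 members furthest up were paralogs. Rpl22l1 was at 7.87, 7.17, 5.16, 5.30, 7.75 and 5.48 per 10000 in progenitors and 4.96, 3.16, 2.60, 2.44, 5.33 and 2.68 in neuroblasts (log2 0.93, SE 0.091, edgeR adjusted p 8.88e-07). Rps27l was at 7.40, 5.63, 4.15, 4.44, 6.68 and 4.43 in progenitors and 4.87, 2.19, 2.33, 2.11, 5.82 and 2.20 in neuroblasts (log2 0.85, SE 0.123, edgeR adjusted p 3.44e-05). Both were higher in progenitors in 6 of 6 pools. The neuroblast-like cells of the 2 kit classes lay largely in different clusters. Class A supplied 81.5% of the cluster with Hes5, Ccnd2 and Pclaf and 3.89% and 7.95% of the others. Rpl7l1 rose by 0.55 and Rpl41, a very small basic protein, by 0.42. In the other direction Rpl7 was lower by −0.53 (SE 0.054, edgeR adjusted p 1.41e-06), Rps27 by −0.45, Rpl10 by −0.44 and Rps14 by −0.39. The count of lower members was 19 with the stricter cell filter, and that of higher members 8 with DESeq2. The count of higher members was 6 without late pool 2, 8 without control pool 2 and 19 without late pool 1.

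Against mature GABAergic interneuron-like cells, 84 of 89 members were higher in neuroblasts (background 40.8%) and 2 lower (38.0%), with a median of 1.71 beside 0.07 for all genes. Rplp0, at 1.41 to 2.94 per 10000 in the interneuron pools, again differed most, by 3.60, and Rpl22 by 2.91. Rpl22l1 was lower in neuroblasts, where it had the values given above, than in interneurons, at 8.20, 7.68, 4.58, 5.32, 7.67 and 5.05 (log2 −0.72, SE 0.099, edgeR adjusted p 3.85e-06). Rps4l, annotated as a transcribed processed pseudogene, was the other (−0.52, SE 0.189, adjusted p 0.0181, lower in 5 of 6 pools).

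Microglia-like cells resembled the immature cells in the size of the difference. Of 90 members, 87 were higher than in spiny neurons (background 36.6%) and 1 lower (46.1%), with a median of 2.58 beside −0.30. In the motor cortex 88 of 90 were higher than in glutamatergic neurons (36.7%) and 1 lower (49.1%), with a median of 2.44 beside −0.40. Rps12 had a median of 25.5 per 10000 in striatal microglia-like cells against 3.08 in spiny neurons (log2 3.71), and its log2 difference in the cortex was 3.83. Rps24, a small subunit protein, was at 49.0, 28.9, 31.0, 31.5, 37.3 and 32.5 per 10000 in striatal microglia-like cells and at 4.24 to 6.45 in the spiny neuron pools (log2 3.46). These groups are far apart. Rplp0 differed by 3.75 and 3.69. The lower member was Rps19bp1 in both regions, at −0.99 and −0.96. Rpl39l, the testis-type copy of Rpl39, had the largest fitted difference, 5.09 and 5.17, but rested on 39 UMIs in striatal and 70 in cortical microglia-like cells and on 22 and 17 UMIs in the neurons.

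Within mature neurons of the motor cortex the difference was small and even. GABAergic interneuron-like cells had 82 of 89 members higher than glutamatergic neurons (background 34.8%) and 0 lower (34.2%), with a median of 0.40 and an SD of 0.22. By edgeR only Rps19bp1 was lower at an unadjusted p under 0.05 (p 0.0401, adjusted p 0.0575), and DESeq2 called 0 lower. Rps4l differed most, at 0.307, 0.484, 0.871, 0.509, 0.600 and 0.552 per 10000 in interneurons and 0.111, 0.142, 0.250, 0.145, 0.205 and 0.179 in glutamatergic neurons (log2 1.62, SE 0.062, edgeR adjusted p 3.29e-20). The groups do not overlap. Rpl21, Rps12 and Rps27 followed with 0.79, 0.78 and 0.73.

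Precursors and mature cells of the oligodendrocyte lineage were compared next. In the striatum 5 of 89 members were higher in precursor-like than in mature oligodendrocyte-like cells (background 28.6%) and 16 lower (19.4%), over the 4 pools with at least 20 cells of both. The median was −0.04 beside 0.23 for all genes, although the summed share was 1.10 to 1.28 times higher in precursors. With another scaling, the RLE factors, the all-gene median was 0.34 and that of the members 0.05, so the sign of the members' median is not settled. The counts turned over as well: 11 were higher with RLE factors, 10 higher and 5 lower without the filter on low counts, 3 higher and 6 lower with DESeq2, and 9 to 14 lower when a pool was left out (9 without early pool 1). In the motor cortex, with 2 pools and 185 mature oligodendrocyte-like cells, 1 of 88 was higher (24.2%) and 42 lower (19.2%), with a median of −0.59 beside 0.14. Without the filter on low counts 27 were lower, and the summed share of precursors was 0.877 and 1.11 times that of the mature cells in the 2 pools.

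Rpl13, a large subunit protein, stood out in this lineage. In striatal precursor-like cells it reached 33.1, 24.9, 24.8, 25.7, 30.0 and 27.9 per 10000, and in the 4 mature oligodendrocyte pools (control 1, early 1, late 1 and late 2) 6.78, 3.13, 5.21 and 5.18. The fitted log2 difference was 2.25 (SE 0.176, edgeR adjusted p 4.93e-20), and in the cortex it was 1.60 (SE 0.288, adjusted p 2.09e-07). Precursor-like cells had the highest median Rpl13 level of the striatal classes, 26.8 per 10000, above neuroblast-like (16.4), microglia-like (16.3), progenitor-like (15.8) and committed precursor-like cells (8.58), with spiny neurons at 3.96. Genes annotated on the same strand within Rpl13 (Gm20388, Snord68 and Mir7079) overlap it, and reads of such features cannot be told apart from Rpl13 by their position alone. In the opposite direction Rps6 was lower by −1.04 and −1.24 in precursors of striatum and cortex, Rps3 by −0.72 and −1.46 and Rpsa by −0.66 and −1.29.

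Several paralogs departed from the group. Rpl22l1 is a copy of Rpl22 that can take its place in the large subunit. Of the UMIs of both genes, Rpl22l1 supplied a median of 21.5% in neuroblast-like cells (19.4% to 32.2% over pools), 22.2% in striatal microglia-like cells, 41.0% in progenitors (37.9% to 48.7%), 47.8% in striatal oligodendrocyte precursors, 65.2% in glutamatergic neurons (64.4% to 73.9%), 71.2% in spiny neurons (67.6% to 74.6%) and 80.0% in striatal interneurons (76.1% to 82.4%). The neuroblast and neuron ranges are far apart, and progenitors lie between them. The 2 genes of the pair differed in their course: from spiny neurons to neuroblasts it rose by 2.82 while Rpl22l1 was at −0.18 (SE 0.0958, edgeR adjusted p 0.0892), and from spiny neurons to microglia Rpl22 rose by 3.07 while Rpl22l1 was at −0.03 (adjusted p 0.806). Over 33 combinations of region and class, Rpl22l1 had 165081 UMIs and Rpl22 126637.

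Rps27l followed another order. Its share of the UMIs of Rps27l and Rps27 was 38.0% in progenitors (29.1% to 42.3%), 36.1% in striatal and 34.9% in cortical oligodendrocyte precursors, 43.9% in striatal committed precursors, 17.2% in neuroblasts (10.0% to 34.7%), 12.6% in spiny neurons and 7.82% in striatal microglia-like cells. From spiny neurons to neuroblasts Rps27l rose by 2.83 and Rps27 by 2.03. Rpl36al supplied 10.3% of its pair with Rpl36a in neuroblasts, 11.6% in progenitors, 25.8% in spiny neurons and 27.4% in glutamatergic neurons. Rpl7l1, with Rpl7, gave 5.35%, 10.8%, 18.6% and 28.8% in the same 4 classes, and Rps4l, with Rps4x, gave 1.01%, 1.14%, 8.80% and 3.07%. For each of these 3 pairs the copy took a larger share in projection neurons than in neuroblasts. Rpl39l and Rpl3l, with 180 and 208 UMIs beside 217507 and 432544 of Rpl39 and Rpl3, and Rpl10l, with 0, were close to or not detected. Where a copy is nearly identical to its parent, the authors' counting may drop or split reads between them.

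**Figure D3:**
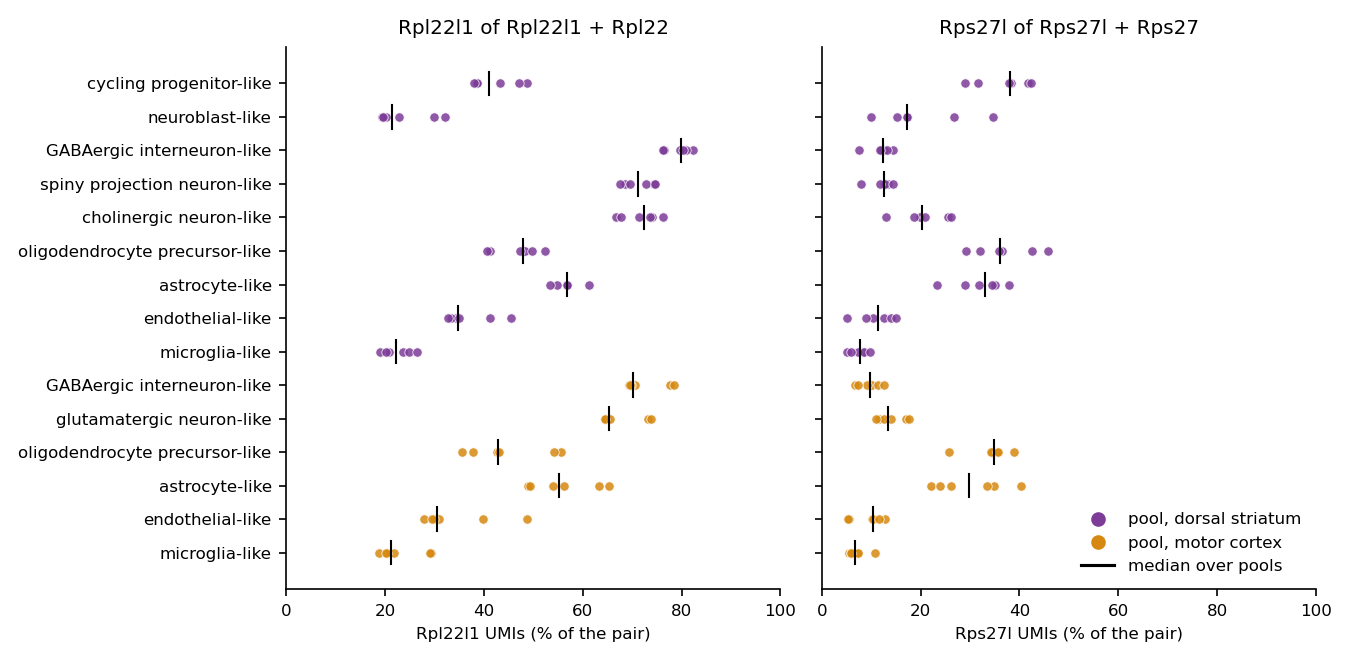
Share of the UMIs of a paralog pair that came from Rpl22l1 (left) and Rps27l (right), in percent (x axis), by cell class (y axis); dots are pools of dorsal striatum (purple) and motor cortex (orange), and black bars are medians. The Rpl22l1 median is 21.5% for neuroblast-like cells and 71.2% for spiny projection neuron-like cells, while the Rps27l median is 38.0% for progenitor-like and 12.6% for spiny projection neuron-like cells.

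Other genes of translation were taken from lists. Of 22 translation factors and other mRNAs with such tracts, 20 were higher in neuroblasts than in spiny neurons and 1 lower (median 1.61), beside 38.0% and 42.6% of all genes, among them Tpt1 (3.01), Eef1a1 (2.24) and Eef2 (2.10). The lower one was Eef1a2, the elongation factor of mature neurons and muscle, at −4.38. These counts run beside those of the ribosomal proteins in the same comparison.

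Genes that build ribosomes were counted in the same way. Of 27 biogenesis genes, 18 were higher in progenitors than in neuroblasts and 1 lower (median 0.62), beside 31.2% and 31.9% of all genes, with Nop58 at 1.15 and Npm1 at 0.62, whereas the ribosomal proteins had 13 higher and 34 lower. Between neuroblasts and spiny neurons 11 of the 27 were higher and 8 lower, with a median of −0.08. Of all genes 38.0% were higher and 42.6% lower there, with a median of −0.08 as well, and nothing is read from the list there. Mitochondrial ribosomal proteins, which build the separate ribosome of that organelle, had 51 of 78 higher in progenitors than in neuroblasts and 1 lower (median 0.48). In neuroblasts against spiny neurons 12 of 81 were higher and 48 lower (median −0.40), and in microglia against spiny neurons, where 36.6% of all genes were higher and 46.1% lower, 4 of 78 were higher and 66 lower (median −1.04). In those 2 comparisons most cytoplasmic and most mitochondrial ribosomal protein genes called thus lay on opposite sides. Of 15 regulators of mTOR and of tract-bearing mRNAs, 7 were higher and 5 lower in neuroblasts than in spiny neurons, a split from which nothing is read beside the 38.0% and 42.6% of all genes, with Eif4ebp1, an inhibitor of cap-dependent translation, at 5.61 and Mtor at −1.09.

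The members were also divided by the pyrimidine tract at their listed start, without a test. From spiny neurons to progenitors the median difference was 1.81 over 15 members with the tract at the listed start and 1.92 over 50 without. With the tract within 5 bases the medians were 1.88 over 31 members and 1.92 over 34. Members without a tract at a listed start may still have it at the start in use.

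Between libraries, the share followed the kit class. Over all kept cells it was 5.35% to 8.17% (median 7.04%) in the 7 class A libraries and 3.00% to 5.37% (median 4.17%) in the 16 class B libraries. In barcodes that failed the filters it was 2.89% to 10.5% and 2.21% to 4.80%. The 2 class A pools lay above every class B pool in 15 of 16 striatal classes, the exception being perivascular macrophage-like cells, and in 11 of 11 motor cortex classes. In some classes different clusters held the cells of the 2 kit classes. Class A supplied 96.1% of the cells of a striatal microglia-like cluster led by Ccl4 and C1qc and 0.600% and 1.02% of the other two, 96.5% and 97.6% against 3.47% and 3.94% in the cortical microglia-like clusters, and 81.5% against 3.89% and 7.95% in the striatal neuroblast-like ones. For oligodendrocyte precursor-like clusters it supplied 93.5% against 2.29% in striatum and 93.2% against 4.03% in motor cortex. The clusters of the projection neurons were mixed, with 18.7% to 53.3% of spiny and 20.3% to 36.4% of cortical glutamatergic neuron-like cells from class A. The ratio of means was 1.21 to 2.28 in striatum (median 1.59) and 1.40 to 1.99 in motor cortex (median 1.83). Each class A pool shares its labelled batch only with another class A pool, and kit, batch, depth and mitochondrial percentage cannot be told apart here.

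Per gene, with stage in the fit, 710 of 1397 striatal pairs of member and class were called higher in class A (background 13.2% of gene and class pairs) and 16 lower (11.9%). In the motor cortex 584 of 948 were higher (6.05%) and 0 lower (4.75%), with 0 lower by DESeq2 as well. The members' median log2 difference per class was 0.19 to 1.08 in striatum and 0.68 to 1.38 in motor cortex, while all-gene medians were −0.12 to 0.01 and −0.07 to 0.00. The cortical count was 220 without late pool 2, 250 without late pool 1 and 366 without control pool 2, and the striatal count was 456 without late pool 2.

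Members differed widely in this respect. Rpl23a, a large subunit protein near the exit of the peptide tunnel, was called higher in 27 of 27 classes, and so was Rpl31. By median log2 difference over classes the highest were Rps3a3 (2.37, in 14 classes), Rpl23a (2.26), Rpl31 (2.22), Rps27rt (2.13), Rpl6l (1.81) and Rpl37rt (1.73). Rps3a3, Rpl6l and Rpl37rt are annotated as processed pseudogenes, and reads may be split between such copies and their parents. Rps3a3 also overlaps Pde4d on the same strand, as Rpl32l does Map7. Reads of those genes cannot be told apart from the copies by position alone. Rps3a2 (1.53), Rpl32l (0.87) and Rps4l (0.04), also so annotated, lay lower. In spiny neurons Rpl23a stood at 4.57 and 4.91 per 10000 in the 2 class A pools and at 0.972 to 1.25 in the 4 class B pools (log2 2.26, SE 0.141, edgeR adjusted p 2.84e-05). Rpl31 stood at 7.38 and 7.60 against 2.15 to 3.03 (log2 1.63). In glutamatergic neurons Rps25 was at 4.96 and 5.74 against 1.57 to 2.02 (log2 1.75, adjusted p 0.00693) and Rps6 at 2.69 and 2.86 against 0.805 to 1.04 (log2 1.76). These groups do not overlap. At the other end Rpl7l1 was called in 0 of 23 classes, and of the 16 lower calls 7 were of Rpl38, 4 of Rpl35, 4 of Rps21 and 1 of Rps4l. Rpl38, Rpl35 and Rps21 were also called higher in 9, 11 and 5 of 27 classes, and Rps4l in 1 of 22. The median differences of Rpl38, Rpl35 and Rps21 over classes were −0.70, −0.51 and −0.41 in striatum. In motor cortex they were 1.68, 2.03 and 0.92.

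Rpl38 and other members with very short mRNAs behaved differently in the 2 regions. For the 10 shortest principal transcripts, 345 to 494 bases and including Rps27, Rpl38, Rpl36, Rps28, Rps29 and Rps21, the median difference of class A from class B was 0.25 in spiny neurons (above 0 in 7 of 10) and 1.41 in glutamatergic neurons (10 of 10). The other 73, of 499 to 5130 bases, had medians of 0.81 and 0.86. Across 83 members, Spearman's rho between length and the difference was 0.082 in spiny and −0.47 in glutamatergic neurons, as a description over genes that share the same libraries.

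Striatal control pool 2 stood apart for these members. Rpl38 was at 1.48, 3.46, 2.15, 1.64, 1.35 and 1.57 per 10000 in spiny neurons of control pools 1 and 2, early pools 1 and 2 and late pools 1 and 2, highest in control pool 2, which is of class B. In glutamatergic neurons it was at 3.73, 1.80, 2.69, 2.38, 4.39 and 1.43, highest in the 2 class A pools. Summed, the 10 shortest made up 11.8% of the UMIs of the 83 members in spiny neurons of control pool 2 and 7.20% to 9.81% in the other 5 striatal pools, and 6.18% to 8.70% in glutamatergic neurons.

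**Figure D4:**
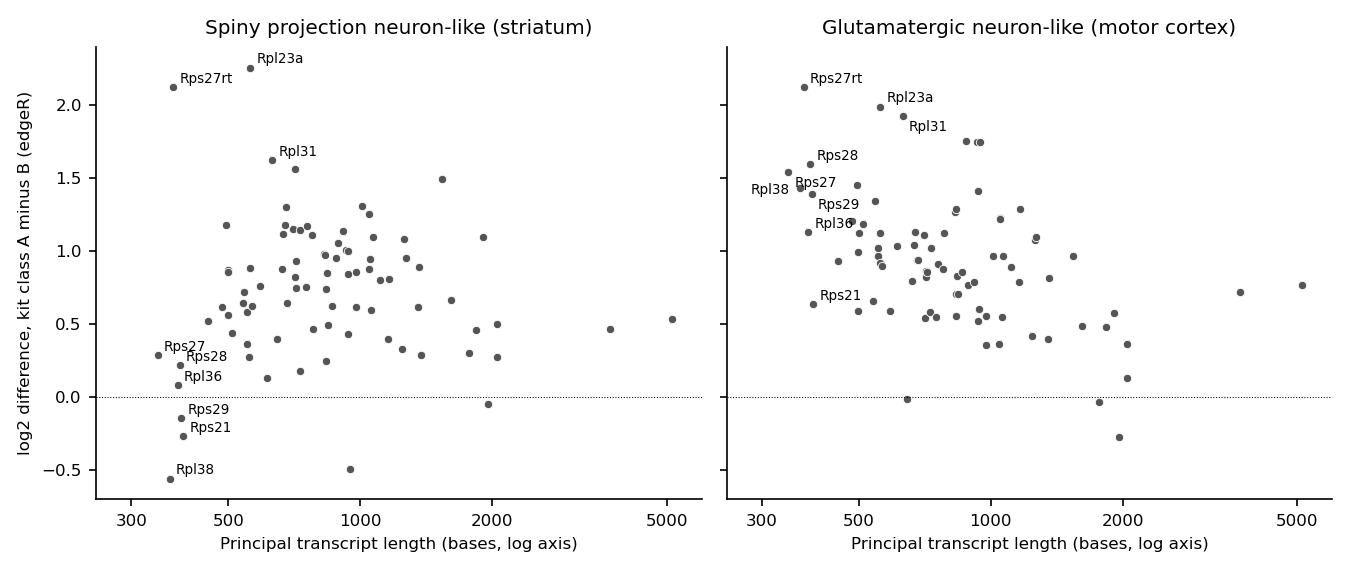
Fitted log2 difference between kit classes A and B (y axis, edgeR) against the length of the principal transcript (x axis, bases, log axis) for 83 ribosomal protein genes in spiny projection neuron-like (left) and glutamatergic neuron-like cells (right); each dot is a gene. The shortest transcripts lie low on the left (median 0.25) and high on the right (median 1.41), with Rpl23a and Rps27rt high in both.

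Training stage was compared with kit class in the fit, over 6 pools of a region. Both early pools are of class B, so the kit term rests on the control and late pools. With 2 pools per stage few degrees of freedom remain, and a missing call does not show that a difference is absent. A fit that leaves out a pool has fewer still and keeps 1 pool of that stage. Without control pool 1, control rests on pool 2 and class A on late pool 1. Counts from such fits, here and below, show how the result depends on pools and are not read as stage effects. The 2 comparisons with control share the control pools, and the 3 comparisons share pools in all. In the striatum 2 of 1397 member and class pairs were called between early and control (0 higher, 2 lower; background 0.0347%), both in GABAergic interneuron-like cells. Rpl36 was at 3.73 and 5.51 per 10000 in the control pools, 2.22 and 2.60 in the early and 3.74 and 3.29 in the late pools (log2 −1.02, SE 0.191, edgeR adjusted p 0.0382). Rpl35 was at 1.32 and 3.20 in the controls, 1.21 and 1.36 in the early and 1.35 and 1.40 in the late pools (log2 −1.07, SE 0.216, edgeR adjusted p 0.0499). For Rpl35 control pool 1 lay within the range of the trained pools, and control pool 2 alone was high, in both of its hemispheres (3.40 and 2.95, against 1.08 to 1.46 in every other library). Rpl36 was also highest in control pool 2, at 5.71 and 5.26 in its hemispheres, against 2.18 to 4.03 in every other library. For Rpl36 control pool 1 lay above the early pools but next to late pool 1, which is also of class A. The count was 0 with RLE factors, with scaling by all other genes and without the kit covariate. DESeq2 called 17, and fits that left out a pool gave 8 (without control pool 2) to 126 (without control pool 1).

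No striatal pair was called between late and control (0 of 1397; background 0.0198%) or between late and early (0 of 1397; 0.00991%) by edgeR. Before adjustment 320, 167 and 105 pairs of the 3 striatal comparisons had a p under 0.05, which is 22.9%, 12.0% and 7.52% of the member pairs beside 5.14%, 5.52% and 6.39% of all gene and class pairs, and DESeq2 called 17, 0 and 2. In the motor cortex edgeR called 0 of 948 between early and control (background 0.0291%), 0 between late and control (0.0291%) and 0 between late and early (0.0177%), with 0 in each by DESeq2. Before adjustment 127, 26 and 79 had a p under 0.05, which is 13.4%, 2.74% and 8.33% beside 3.32%, 3.95% and 2.47% of all pairs, so the late against control count lay under that share. Without control pool 1, 90 striatal pairs were called between late and control and 25 between late and early, and without late pool 1 there were 79 between late and control. In the cortex leaving out 1 pool gave at most 8 calls, between early and control without control pool 2.

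The medians over members are given as a description, since few or no members were called. Between early and control, the striatal median over members was below 0 in 16 of 16 classes, from −0.42 to −0.07, and the cortical median above 0 in 11 of 11, from 0.14 to 0.51. Between late and control the medians were −0.30 to 0.10 in striatum, above 0 in 5 of 16 classes, and 0.02 to 0.20 in motor cortex. The medians over all genes in these comparisons stayed between −0.02 and 0.06. In the batch that holds early pool 1 and control pool 2 of a region, the early share was 0.577 to 0.975 times the control share in striatum, lower in 17 of 17 classes, and 0.968 to 1.29 times in motor cortex, higher in 11 of 12. In the batch of late pool 1 and control pool 1 it was higher in 5 of 18 striatal and 9 of 12 cortical classes. Classes of a pool share its libraries, so these counts are not independent repeats.

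**Figure D5:**
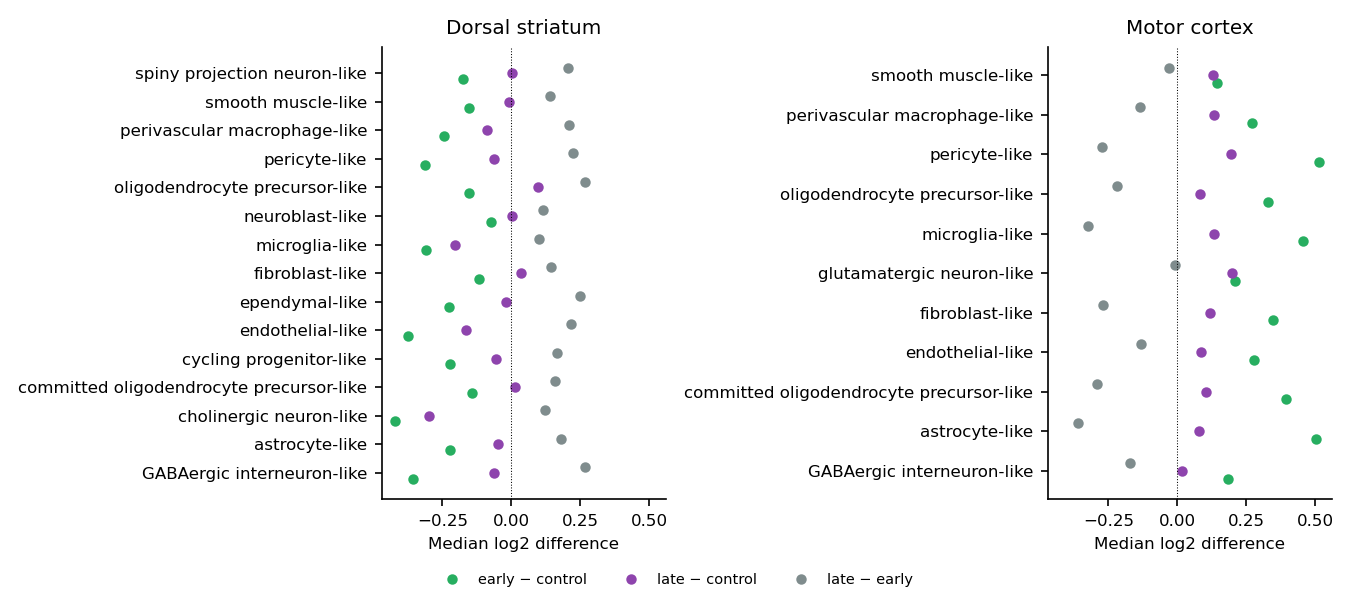
Median fitted log2 difference over ribosomal protein genes (x axis, edgeR with kit class in the fit) for early minus control (green), late minus control (purple) and late minus early (grey), by cell class (y axis) in dorsal striatum (left) and motor cortex (right). Early minus control lies between −0.42 and −0.07 in striatum and between 0.14 and 0.51 in motor cortex, for the classes shown.

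Whether the stages act differently in the regions was tested over the 12 pools together. For early this interaction called 0 of 872 pairs of member and class (background 0.0%), and for late 0 of 872 (background 0.00361%). Before adjustment 61 and 14 had a p under 0.05, which is 6.995% and 1.61% beside 5.47% and 4.12% of all pairs. DESeq2 also called 0 in both. The members' median of this term was above 0 in 10 of 10 classes, 0.16 to 0.68 for early and 0.03 to 0.38 for late. These counts depended on how batches entered the fit. In another fit, chosen after seeing the data, the labelled batch entered as a block in place of kit class. It leaves 1 residual degree of freedom. There edgeR called 57 of 872 pairs for early (background 0.756%) and 2 for late (0.423%). For all 57 the early minus control difference was higher in motor cortex than in striatum, which can come from a change in either region. Of the 57, 39 were in GABAergic interneuron-like, 8 in microglia-like and 8 in smooth muscle-like cells. The region by stage term of Rpl35, Rpl38 and Rpl36 was 1.70, 1.54 and 1.43 on the log2 scale in the interneurons. In this fit the medians were above 0 in 10 of 10 classes for early and in 7 of 10 for late. Rpl38 was at 2.54, 6.20, 3.13, 2.94, 2.13 and 2.98 per 10000 in striatal interneurons of control pools 1 and 2, early pools 1 and 2 and late pools 1 and 2, and control pool 2, which shares its batch with early pool 1, was again the high one. Without that pool the block leaves no residual degree of freedom, so its part in these calls was not tested.

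Hemispheres contralateral and ipsilateral to the trained limb were compared within the 4 trained pools of each region. In the striatum 1 of 1139 pairs was called (background 0.014%): Rps29, a small zinc-binding subunit protein, in cycling progenitor-like cells. It was at 12.5, 10.7, 9.67 and 12.3 per 10000 contralaterally and 17.7, 12.6, 11.9 and 14.0 ipsilaterally in early pools 1 and 2 and late pools 1 and 2, lower in 4 of 4 (log2 −0.31, SE 0.056, edgeR adjusted p 0.0313). In the 2 hemispheres of untrained control pool 2 it was at 20.3 and 16.7. DESeq2 called 0, and so did the fits without late pool 1 or late pool 2. Before adjustment 93 striatal pairs had a p under 0.05, 8.17% beside 3.83% of all pairs. In the motor cortex 0 of 858 pairs were called (background 0.0755%), with 25 under 0.05 before adjustment (2.91% beside 4.82% of all pairs) and 0 by DESeq2. The summed share was higher contralaterally in 20 of 58 striatal pairs of pool and class (ratio 0.807 to 1.22, median 0.971) and in 31 of 44 cortical ones (0.868 to 1.42, median 1.02).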

How the data were processed

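Cells came from 3′ single-cell libraries. The deposited matrices hold raw counts of UMIs per gene and barcode, made by the authors with Cell Ranger 3.1.0 on GRCm38 (mm10) per the submitters' processing notes; the file headers name software 3.0.2. Antisense and multimapping settings were not given in the sources used here. Barcodes needed 500 genes and 1000 UMIs with mitochondrial UMIs up to 20%, and 5103 presumed doublets were removed by Scrublet score (scanpy 1.11.5, the top 0.8% per 1000 barcodes). Clusters (2000 variable genes without the members, 40 components, 20 neighbours, leidenalg 0.10.2, resolution 1.5) were named by marker lists, with naming rules adjusted after the clusters were seen. Kit classes were set from the rate at which library pairs share barcodes.

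UMIs were summed per pool and class with at least 20 cells in every pool used and tested with the quasi-likelihood test of edgeR 4.0.16 in R 4.3.3, after filterByExpr and with TMM scaling, adjusted over all genes tested. The script was checked on simulated counts. A striatal class and a few genes that count in the totals are not reported here. A share is members' UMIs over all UMIs and was not tested. Pools were numbered by record order. Members and lists were chosen with earlier results of these data known. Named members were, in each comparison of classes or kits, up to 6 called per direction by adjusted p on the same side in every pool, every paralog pair, the 5 furthest from the median on each side in progenitors against spiny neurons, and every call of stage, hemisphere and region; Rplp1, Rplp2, Rps6, Rpsa, Rps27, Rpl39l and Rpl38 were added for their role or after their values were seen. Also tried were DESeq2 1.42.0, RLE scaling, all genes unfiltered, scaling by all other genes, a stricter cell filter (1000 genes, 2000 UMIs, 10% mitochondrial), no kit covariate, no stage covariate (also control and late pools only) and each pool left out; the labelled batch as a block, for region by stage, was added after seeing the data.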

Additional observations from a re-analysis of the deposited data

How the results depend on the processing

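The shares of 10 classes (6 striatal and 4 cortical) were recomputed under 4 settings and with each pool left out. The settings were a stricter cell filter, doublets kept, medians over cells, and mitochondrial UMIs left out. All 10 shares stayed within 1 SD of their reported medians, and the other classes were not recomputed. That SD spans pools of both kit classes (3.25 for neuroblast-like cells on a median of 11.6%). It is a wide limit, and smaller shifts would not show. No paired analysis was possible because pool numbers follow record order and pair nothing; between the stages of 1 region the labelled batch as a block would use up all degrees of freedom. For region by stage over 12 pools that block, added after seeing the data, gave 57 calls for early and 2 for late. Comparisons of classes and of hemispheres had the pool as a block throughout. Members higher in progenitors than in neuroblasts numbered 8 with DESeq2, and those lower 19 with the stricter filter. Striatal members higher in oligodendrocyte precursors than in mature oligodendrocytes numbered 11 with RLE factors, 10 without a filter on low counts, 3 with DESeq2 and 3 with the stricter filter, and those lower 5, 6 and 8 without a filter, with DESeq2 and with the stricter filter; 27 were lower in motor cortex without a filter. Kit calls under the stricter filter were 381 in striatum and 327 in motor cortex, where fewer classes had enough cells. For early against control striatum the count was 0 with RLE factors, 0 with scaling by other genes, 0 without the kit covariate, 17 with DESeq2 and 92 without a filter. Without a filter there were 26 calls for late against control and 23 for late against early in striatum (2 with DESeq2, 1 with scaling by other genes), 1, 2 and 2 in motor cortex, 4 between striatal hemispheres (0 with DESeq2), and 4 and 1 for region by stage.

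Leaving out each pool gave 6 to 19 members higher and 23 to 39 lower in progenitors than in neuroblasts, 86 higher in neuroblasts than in spiny neurons throughout, 86 to 87 for progenitors against spiny neurons, 83 to 84 for neuroblasts against interneurons, 4 to 5 higher and 9 to 14 lower in striatal precursors, 87 and 88 in microglia of the 2 regions, and 78 to 81 for cortical interneurons. Kit calls ranged from 456 to 721 in striatum and 220 to 648 in motor cortex. Stage calls ranged from 8 to 126 (early), 0 to 90 (late) and 2 to 25 (late against early) in striatum and 0 to 8, 0 to 1 and 0 to 7 in motor cortex. Hemisphere calls ranged from 0 to 2 and 0 to 0, and those for region by stage from 0 to 1 for either stage. Cortical precursors, with 2 pools, gave no such fits.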

Other observations

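The list of mitochondrial ribosomal protein genes also differed between kit classes. In spiny projection neuron-like cells 69 of 80 were higher in class A and 0 lower, with a median log2 difference of 0.69 (all genes: 3537 of 17110 higher and 3229 lower), and in glutamatergic neuron-like cells 31 of 82 were higher and 1 lower, with a median of 0.40 (all genes: 1096 of 17742 higher and 1062 lower). In striatal neuroblast-like cells 64 of 78 were higher and 1 lower, with a median of 0.90 (all genes: 2661 of 11243 higher and 2765 lower). Translation factors and other mRNAs with terminal pyrimidine tracts had 14 of 22 higher and 0 lower in spiny neurons (median 0.43) and 5 of 22 higher and 0 lower in glutamatergic neurons (median 0.20). The ribosome biogenesis list had 8 of 27 higher and 2 lower in spiny neurons, with a median of 0.07, beside the counts over all genes given above. The cause of these differences between kit classes was not tested.

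A small motor cortex cluster of 105 cells that stayed unnamed, led by Cd74, Ccl5 and Lyz2, had the highest share of cytoplasmic ribosomal protein UMIs of any cluster in that region, 26.7%. Cycling cells with oligodendrocyte precursor markers, unnamed because both marker lists were high (259 cells in motor cortex and 97 in striatum, led by Top2a, Olig1, Ube2c and Pdgfra), had shares of 4.87% and 4.75%, below the 12.2% of the striatal cycling progenitor-like cluster.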
